A study of Mus musculus with 5 samples.

Results

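The DNA that was released from methyl-CpG capture beads at high salt was compared with the DNA released at medium salt, in mouse embryonic stem cells. The comparison takes 2 of the 5 libraries of the study, the MethylCap-seq eluate at 800 mM NaCl and the eluate at 600 mM NaCl, and sets them directly against each other with no input as divisor. Both eluates came from E14 gene-trap clones at passages 11 to 14, grown without feeders in 10% serum with leukaemia inhibitory factor (LIF), which supports self-renewal. For each capture, 1 µg of sonicated DNA was incubated with 2 µg of His6-GST-MBD, a tagged methyl-CpG binding domain, and recovered on magnetic beads. The sources used here do not say whether both eluates came in sequence from the same capture. MeDIP pulls down denatured DNA with an anti-5mC antibody (5mC is 5-methylcytosine) and hMeDIP with an anti-5hmC one (5hmC is 5-hydroxymethylcytosine), 2 µg in each case, and both were made from the same kind of E14 clones. TNG-A, another E14 derivative with an EGFP reporter at Nanog, gave the chromatin input, so it does not share the cells of the eluates. Sex chromosomes set the library labelled input apart, with 22 reads on Y (1.35 RPM) against 176 to 218 RPM in the other 4 libraries, and 47985 RPM on X against 12626 to 20101 RPM. X and Y are not part of the bins, and the labelled cell type was not checked further.

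In mammals 5mC sits almost wholly at CpG sites, and a methyl-CpG binding domain grips DNA more firmly the more methylated CpG sites a fragment holds. Salt weakens that grip, so stepwise elution is used to sort fragments by their density of methylated CpG, with the densest fragments leaving at the highest salt. The domain binds 5hmC, the oxidised form of 5mC that the Tet enzymes make in embryonic stem cells, only poorly. Antibodies such as those of MeDIP and hMeDIP read the modified base itself on single-stranded DNA.

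Of the deposited reads, 9523062 of 10495409 in the 600 mM eluate and 6812759 of 7539403 in the 800 mM eluate were used. These are reads on chromosomes 1 to 19 with 0 in the fourth column of the files, and no position and strand held more than 1 of them. The same rule left 10260899 reads of MeDIP, 18154810 of hMeDIP and 16332177 of input. Each read was placed by its midpoint in bins of 1, 10 and 100 kb and scaled to RPM, that is to 1000000 reads used per library. The fold of a bin was the larger of both values over the smaller after 0.5 RPM was added to each, which pulls bins with few reads toward equality. Bins were tested where both eluates together had at least 10, 20 or 100 reads (1, 10 or 100 kb) and were called at 3-fold, 2-fold or 1.5-fold. With 1 library per side no test between the salt concentrations could be made, so the text holds no p-value and the differences lack any check by replicates. Printed intervals are exact 95% intervals of the raw read ratio (Clopper-Pearson), which cover the error of counting alone. Without molecular identifiers, reads need not be independent molecules.

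At 1 kb the eluates were close over most of the genome, and the departures were lopsided. Of 534350 tested bins, 68.5% lay within 1.5-fold, with a median log2 ratio of 800 over 600 mM of 0.03 and an SD over bins of 0.62. The number of bins past 2-fold was near equal, 24526 higher at 800 mM and 24674 higher at 600 mM. Past 3-fold there were 4940 bins higher at 800 mM (0.924% of tested bins) and 3402 higher at 600 mM (0.637%). Past 4-fold the counts were 2788 and 255. At 8-fold or more they were 931 (0.174%) and 1 (0.000187%), and past 16-fold 261 and 0. The order at 3-fold depends on the pseudocount: with 0.1 RPM the counts became 15251 at 800 mM and 18816 at 600 mM, and with 2 RPM 1461 and 81. For 2551 of the 4940 bins higher at 800 mM (51.6%) the whole counting interval lay beyond 3-fold, against 72 of the 3402 higher at 600 mM (2.12%). The called bins held 2.83% of all 800 mM reads and 0.268% of the 600 mM reads in one direction, and 0.951% of the 600 mM reads and 0.156% of the 800 mM reads in the other.

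**Figure D1:**
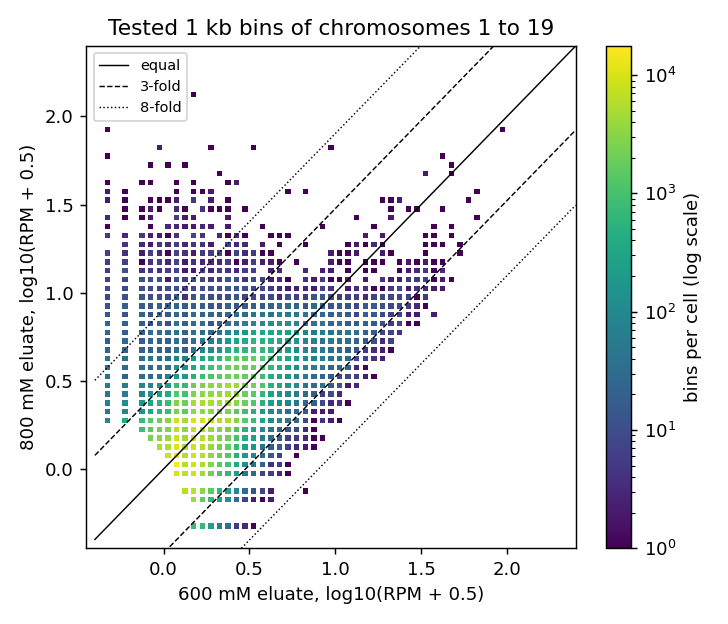
Tested 1 kb bins of chromosomes 1 to 19 by log10(RPM + 0.5) in the 600 mM eluate (x axis) and the 800 mM eluate (y axis), with the number of bins per cell as colour on a log scale and lines at equality, 3-fold and 8-fold. Above the upper 8-fold line lie 931 bins, many with hardly any 600 mM reads, while 1 bin lies below the lower 8-fold line.

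The bins that led the 800 mM side were tall in that eluate and close to empty in the other. The bin with the largest fold, chr13:118062001-118063000 (mm9), had 551 reads at 800 mM (80.9 RPM) and 0 at 600 mM. Against a floor of 3 reads it was at least 257-fold higher (the exact interval starts at 208). MeDIP had 1 read there, hMeDIP 4 and input 7. The next bin, chr2:144076001-144077000, had 392 reads at 800 mM and 0 at 600 mM (at least 183-fold, lower end 148), with 0 reads of MeDIP, 6 of hMeDIP and 9 of input. The most densely covered of these bins, chr11:75578001-75579000, had 916 reads at 800 mM (134 RPM) and 9 at 600 mM, a raw ratio of 142 (interval 74.6 to 312). In it, 45.8% of all positions on both strands carried an 800 mM read, which limits how high the value can go when each position counts once. MeDIP gave 9 reads in that bin, hMeDIP 41 and input 12.

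Both pairs of neighbouring bins among the leading 10 showed that the excess can pass a bin border. On chromosome 1, chr1:88246001-88247000 had 260 reads at 800 mM against 0, and the adjoining kilobase had 435 against 4. On chromosome 7, chr7:118214001-118215000 had 246 against 0 and the adjoining kilobase 226 against 0. The last 3 of the 10 bins lay at chr15:76735001-76736000 (285 reads against 0), chr7:54110001-54111000 (429 against 4) and chr13:3564001-3565000 (231 against 0). All 10 were on 6 chromosomes, and 7 of them had no 600 mM read. Their MeDIP reads ranged from 0 to 13 and their input reads from 7 to 24, while the median of all tested bins was 8 MeDIP and 7 input reads. Genes, CpG content and repeats at these positions were not analysed here, because gene models and sequence of mm9 were not used here.

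Bins higher at 800 mM clustered over short distances. Of the 4940 bins, 27.5% had an adjoining bin called the same way, and of the 931 past 8-fold 22.6% had an adjoining bin past 8-fold. At a distance of 1 kb from a called bin, 27.9% of tested bins were called the same way, against 0.924% of all tested bins. That share was 12.3% at 2 kb, went through 5.04% at 5 kb and 2.26% at 10 kb, and was 1.56% at a distance of 100 kb, so it was still above the background at the widest distance examined. Runs of adjoining bins were short even so: 85.3% were a single bin, and the longest, of which there were 5, held 5 bins. Among those, chr3:36462001-36467000 had 243 reads at 800 mM against 5 at 600 mM, a raw ratio of 67.9 (28.7 to 211).

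Linking called bins no more than 50 kb apart gave 385 chains of at least 3 bins, which held 30.5% of the bins higher at 800 mM. The longest chain, chr4:116156001-116376000, joined 15 bins across 220 kb with no bin called the other way. Its called bins had 890 reads at 800 mM and 33 at 600 mM, a raw ratio of 37.7, and over the whole span the ratio was 3.21 (2.90 to 3.55). In the same 15 bins MeDIP had 59 reads, hMeDIP 114 and input 155. Chains of 9 bins lay at chr17:13104001-13160000 (663 reads against 76 in the called bins) and chr17:35970001-36095000 (983 against 132). Chains of 8 bins lay at chr1:165847001-165893000 (201 against 18) and chr4:48407001-48470000 (255 against 29). The 1 Mb window with most such bins was chr10:127000001-128000000, where 20 of 468 tested bins were called.

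**Figure D2:**
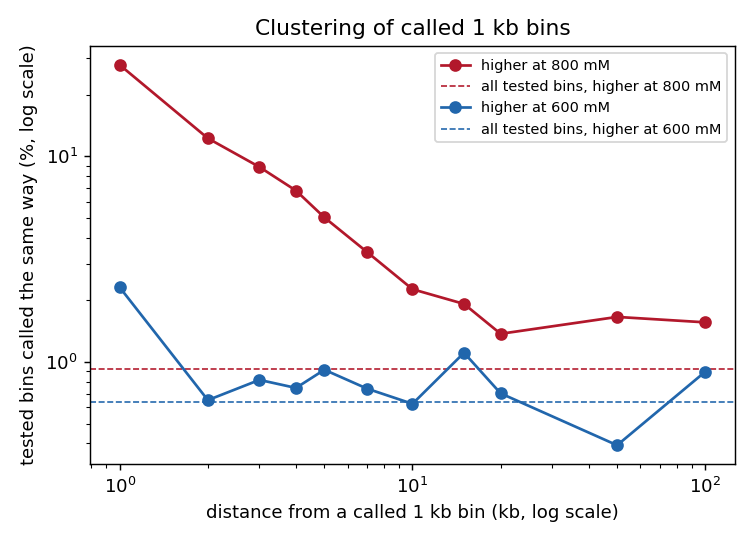
Percent of tested 1 kb bins called the same way (y axis, log scale) against the distance in kb from a called bin (x axis, log scale), for bins higher at 800 mM (red) and at 600 mM (blue), with dashed lines at the percent called over all tested bins. The 800 mM series declines from 27.9% at 1 kb to 1.56% at 100 kb and stays above its dashed line, whereas the 600 mM series is at 2.30% at 1 kb and near its line from 2 kb on.

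The 2 directions differed in how forward and reverse reads were arranged around the centre of a bin. When fragments of a fixed place are sequenced from their ends, forward reads gather to the left of it and reverse reads to the right, about a fragment length apart. For the 931 bins past 8-fold at 800 mM, merged into 816 runs, the median 5′ position of reverse reads minus that of forward reads was -25.8 bp (interquartile range -89 to 26.6 bp), and 96.7% of runs were under 100 bp. Forward and reverse 800 mM reads thus lay on top of each other in these bins. The few 600 mM reads of the same runs were 171 bp apart over the 269 runs with at least 5 on each strand. Their interquartile range was wide, -78 to 273.5 bp, and 38.3% of those runs were under 100 bp. The arrangement of 600 mM reads in these bins is thus poorly fixed. Bins higher at 600 mM with at least 80 reads in both eluates together numbered 261, in 247 runs, of which 246 had at least 5 reads on each strand. There the distance in 600 mM reads was 262 bp (240 to 282 bp), and 5.28% were under 100 bp. The 800 mM reads in those same runs were 246 bp apart. In bins within 1.5-fold and with at least 80 reads, the distance was 234 bp in the 600 mM eluate and 204 bp in the 800 mM eluate.

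In 800 mM reads the overlap of strands thus appeared in bins with a large excess at 800 mM, and not in the medians of the other 2 sets. It was less marked in weak bins: among bins higher at 800 mM with 10 to 39 reads the median distance was 44.5 bp, and 60.4% of 2568 runs were under 100 bp. Each of the leading 10 bins at 800 mM had a distance between -96 and 46 bp. Of the leading 10 at 600 mM, 9 had at least 5 reads on each strand. Their distances lay between 179 and 294 bp, except for 992 bp in the tenth bin, with 21 forward and 15 reverse reads. Both strands were about equally covered, with 50.05% forward reads in the 8-fold set. The reads were concentrated, since 65.8% of the 800 mM reads within 6 kb fell within 500 bp of the centre in the 8-fold set, and 69.9% of the 600 mM reads in the set higher at 600 mM. The cause of the difference in strand arrangement was not tested.

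**Figure D3:**
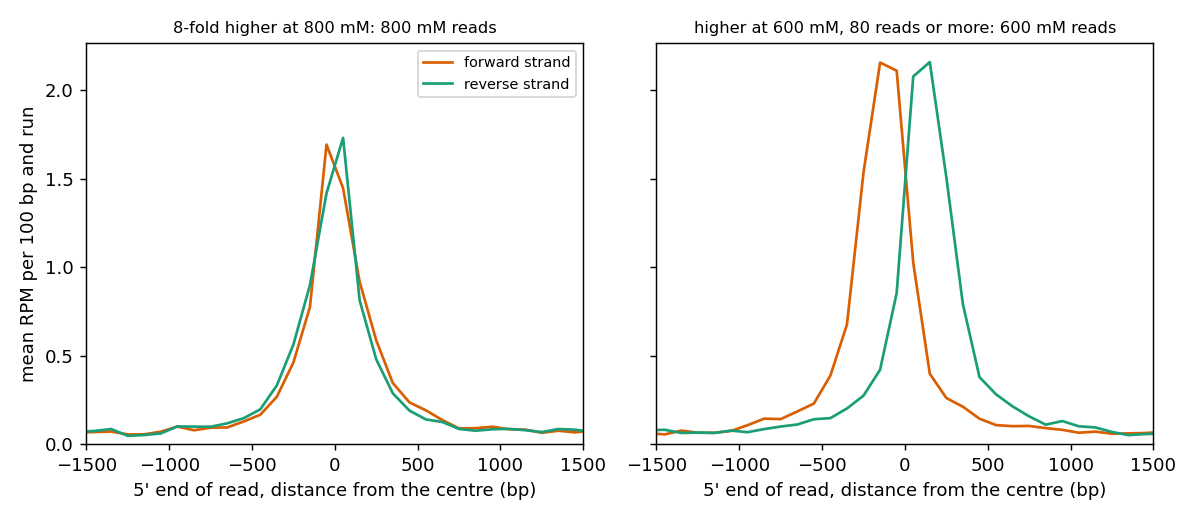
Mean RPM per 100 bp and run (y axis) by the distance of the 5′ end of each read from the centre of the run in bp (x axis), for forward and reverse reads. Left, 800 mM reads around 816 runs past 8-fold at 800 mM, where the strands coincide; right, 600 mM reads around 247 runs higher at 600 mM with at least 80 reads, where the forward and reverse summits are apart.

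The other libraries took no part in the calls. Mean MeDIP was lower in bins higher at 800 mM than over all tested bins. In the 4940 bins the mean MeDIP level was 0.584 times that over all tested bins, hMeDIP 0.763 times, and input 1.28 times. In the 931 bins past 8-fold the values were 0.384 for MeDIP, 0.651 for hMeDIP and 1.46 for input. The median was 3 MeDIP reads against 8 over all tested bins and 10 input reads against 7. Of these 931 bins 13.1% had no MeDIP read, against 1.63% of all tested bins. The call itself picks bins poor in the 600 mM eluate, also a methyl-CpG capture. Median 600 mM reads were 3 in the 4940 bins and 2 in the 931, against 10 over all tested bins. How far that choice alone lowers mean MeDIP was not tested. Around the centres of the 8-fold runs the 800 mM signal was 27.9 times its level at 2 to 3 kb. The 600 mM signal was 0.703 times its own flank, MeDIP 0.787, hMeDIP 0.891 and input 1.02. The 800 mM peak and the low 600 mM centre both follow from how the bins were chosen. Another set took the 637 bins at least 3-fold higher at 800 mM with at least 80 reads, which left out 8-fold bins with fewer reads. There the 800 mM centre was 27.4 times its flank, 600 mM 1.82 times, MeDIP 1.47 times, hMeDIP 1.35 times and input 0.942 times. In the 2987 bins higher at 800 mM with 10 to 39 reads, the 800 mM centre was 9.07 times its flank and 600 mM 0.673 times. MeDIP was 1.41 times, hMeDIP 1.24 times and input 1.01 times its flank there. Among these sets MeDIP thus lay below its flank only in the 8-fold runs. Input was about as high in the flank as at the centre, and its part in the result was not tested.

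Farther out the ratio returned to equality within 20 kb. Pooled over the 8-fold bins the RPM ratio of 800 over 600 mM was 33.3. It was 5.29 in bins 1 kb away and 2.45 at 2 kb, then 1.25 at 5 kb, with 1.13 at 10 kb and 1.00 at 20 kb. The 800 mM mean RPM per bin went from 12.4 to 0.615, while the 600 mM mean was 0.373 in the bins themselves and between 0.615 and 0.668 at 1 to 20 kb.

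Bins that led the 600 mM side held far fewer reads and had smaller folds. The largest, chr19:13194001-13195000, was the 1 bin past 8-fold, with 58 reads at 600 mM and 2 at 800 mM, a raw ratio of 20.7 (5.49 to 175). MeDIP had 2 reads in it, hMeDIP 1 and input 0. The bin chr9:100999001-101000000 had 26 reads against 0, at least 6.20-fold with a lower end of 4.69, and 15 input reads. At chr3:98625001-98626000 and chr19:39731001-39732000 there were 35 reads against 1 each, and the interval of the raw ratio runs from 4.21 to 1017. Folds of the leading 10 ranged from 5.41 to 8.30, with 21 to 58 reads at 600 mM and 0 to 2 at 800 mM. These bins are extremes of shallow counts, and their intervals are wide.

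Most bins higher at 600 mM were of this shallow kind. Of the 3402, 2954 had 10 to 39 reads in both eluates together, and 52.8% had no 800 mM read at all. Shallow bins were also the larger part of the other direction, with 2987 of the 4940 bins higher at 800 mM at 10 to 39 reads. Reads of the 2954 bins higher at 600 mM were few but arranged as in other bins, with a median strand distance of 208 bp over 2684 runs. The remaining 448 bins higher at 600 mM included 187 with 40 to 79 reads, 151 with 80 or more but under 160, and 110 with at least 160. Among bins with at least 160 reads the directions were about equally frequent: 110 of 697 (15.8%) were called higher at 600 mM and 105 (15.1%) higher at 800 mM. Their sizes were unlike, with a median log2 ratio of -1.81 in the former and 4.47 in the latter. The median of all 697 bins was -1.12. With 80 or more but under 160 reads the median was -0.18, and 532 bins (12.2%) were called higher at 800 mM against 151 (3.47%) at 600 mM. With 40 to 79 reads it was 0.17, with 1316 and 187 bins called.

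The 600 mM bins with the most reads also carried antibody signal. The 110 bins with at least 160 reads had 2.71 times the mean MeDIP level of all tested bins and 2.20 times the hMeDIP level, with 0.799 times the input. Set against the means of the 697 bins of the same read class, however, MeDIP was 0.610 times, hMeDIP 0.709 times and input 0.404 times as high. Mean input of that class was itself 1.97 times that of all tested bins. Medians lay closer, at 25 MeDIP and 31 hMeDIP reads in the 110 bins against 30 and 33 in the class. The 105 bins of that class higher at 800 mM were at 0.155 times its mean for MeDIP, 0.386 times for hMeDIP and 0.722 times for input. Their medians were 5 MeDIP and 14 hMeDIP reads. In profiles around the 247 runs with at least 80 reads, the 600 mM centre was 28.8 times its flank and the 800 mM centre 6.76 times. MeDIP was 4.99 times, hMeDIP 3.39 times and input 0.516 times its own flank. Both eluates and both antibody libraries thus had more signal at these centres than in the flanks. The set of the 800 mM side with at least 80 reads, given above, also had centres above their flanks in the other eluate and in both antibody libraries, by smaller factors.

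The block higher at 600 mM with the most called bins lay on chromosome 2. Within chr2:174110001-174154000, 6 bins were called higher at 600 mM and 1 the other way. The 6 bins had 1353 reads at 600 mM and 242 at 800 mM, a raw ratio of 4.00, and the whole 44 kb had a ratio of 2.64 (2.39 to 2.93). MeDIP had 132 reads in them, hMeDIP 39 and input 31. The block contained the run with the most bins, the 4 bins of chr2:174122001-174126000, with 1178 reads against 217, a raw ratio of 3.88 (3.36 to 4.51). A second compact block, chr16:3232001-3239000, had 215 reads against 34 in its 4 called bins, with 11 MeDIP reads and 18 input reads.

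Apart from such blocks, bins higher at 600 mM were scattered. An adjoining bin called the same way was found for 2.00% of them, and 3334 of 3367 runs were single bins. At 1 kb from a called bin 2.30% of tested bins were called the same way, against 0.637% of all tested bins, and from 2 kb to 100 kb the share ranged from 0.392 to 1.11%. The chains of at least 3 bins numbered 47 and held 4.32% of the bins. The other 3 chains among the leading 5 were looser: chr11:100734001-100830000 (4 bins) had a span ratio of 0.983 (0.895 to 1.08), chr14:62985001-63053000 (4 bins) of 1.06 (0.908 to 1.24) and chr1:195276001-195340000 (3 bins) of 1.59 (1.26 to 2.01). Sparse calls enter these shares, since the share with an adjoining called bin was 8.48% among the 448 bins with at least 40 reads and 24.5% among the 1953 such bins of the other direction.

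All tested bins were also sorted by the reads of the other libraries, which the calls did not use. Mean RPM over all tested bins was 1.363 at 600 mM and 1.453 at 800 mM, so their pooled ratio was itself above 1. A class ratio slightly above 1 is therefore no departure from all tested bins. Pooled over the 8730 bins with no MeDIP read, the RPM ratio of 800 over 600 mM was 1.23. It exceeded 1 on each of the 19 autosomes (1.03 to 1.46). The median bin of that class was not higher at 800 mM (log2 ratio -0.01), and 4.64% of the class was called higher at 800 mM. The pooled ratio was between 1.04 and 1.12 for bins with 1 to 40 MeDIP reads, with a median log2 ratio of -0.02 in those with 1 to 2. In the 6852 bins with 41 to 80 MeDIP reads it was 0.823, under 1 on all 19 autosomes (0.769 to 0.883). In the 720 bins with at least 81 it was 0.746, under 1 on 18 of 19 (0.556 to 1.17). Median log2 ratios were -0.16 and -0.44 in these last classes. The share called higher at 800 mM was 0.0876% in bins with 41 to 80 MeDIP reads. The share called higher at 600 mM was 1.34% in bins without a MeDIP read and 1.18% in those with 41 to 80, with lower values in the classes between. Bins without a MeDIP read averaged 15.5 reads in both eluates and those with 41 to 80 averaged 53.5, so depth differs along this order.

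The 5hmC antibody gave a similar pattern at its upper end. Bins with at least 81 hMeDIP reads had a ratio of 0.767, under 1 on all 19 autosomes. Bins with none had 1.01, under 1 on 9 of 19, which is below the ratio over all tested bins. Input reads went the other way, with 0.912 in bins without an input read and 1.30 in the 2442 bins with 21 to 40, of which 4.46% were called higher at 800 mM. The few bins with still more input reads broke that order, with 1.15 in 36 bins with 41 to 80 and 0.942 in 85 bins with at least 81. Autosomes of 1 library are not replicates, and their range describes only how evenly a ratio is spread. The part of input coverage in the ratio was not tested.

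**Figure D4:**
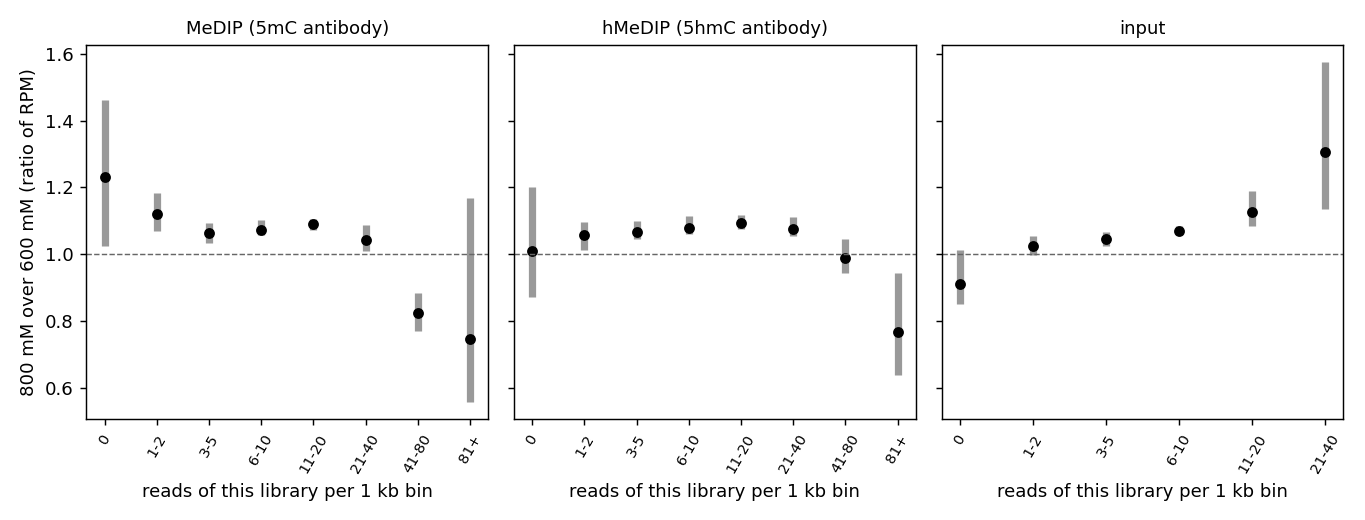
Ratio of RPM at 800 mM over 600 mM (y axis), pooled over tested 1 kb bins grouped by their reads in MeDIP, hMeDIP or input (x axis), with points for all autosomes together and bars from the lowest to the highest of the 19 autosomes. The lowest and highest MeDIP classes are at 1.23 and 0.746, and the drawn input classes go from 0.912 to 1.30 (2 sparse input classes above 40 reads, at 1.15 and 0.942, are not drawn). Mean RPM over all tested bins is itself higher at 800 mM than at 600 mM.

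In wider bins, called at smaller folds, more calls lay on the 600 mM side. Of 164208 tested 10 kb bins, 2330 (1.42%) passed 2-fold toward 800 mM and 4364 (2.66%) toward 600 mM. At higher folds the 800 mM side led as it did at 1 kb, with 661 against 368 bins past 3-fold, 347 against 56 past 4-fold and 80 against 0 past 8-fold. With a pseudocount of 2 RPM the counts past 2-fold became 1109 and 366, so this order too depends on the pseudocount. When the median bin was set to 1 the counts were 2566 and 3641. Of 22355 tested 100 kb bins, 251 (1.12%) passed 1.5-fold toward 800 mM and 433 (1.94%) toward 600 mM, which became 317 and 324 with the median bin at 1. Past 2-fold there were 40 and 12 bins of 100 kb. That scaling moved the median log2 ratio of all tested bins by 0.04 at both sizes. Counting intervals lay wholly beyond the threshold for 33.6% and 3.78% of the 10 kb calls and for 31.1% and 5.77% of the 100 kb calls (800 and 600 mM).

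In wide bins higher at 800 mM much of the excess lay in a single kilobase, more so at 10 kb than at 100 kb. The share of the RPM difference that lay in the 1 kb with the largest difference had a median of 63.7% in the 10 kb bins higher at 800 mM and 39.7% in those higher at 600 mM. At 100 kb the medians were 41.8% and 20.8%. That kilobase held over 50% of the difference in 72.1% of the 10 kb and 38.6% of the 100 kb bins higher at 800 mM. For bins higher at 600 mM these values were 30.4% and 20.3%. The share that counting error alone would give was not computed. No called 1 kb bin lay inside 34.9% of the 10 kb bins higher at 800 mM, against 87.7% of those higher at 600 mM. The latter also held fewer reads, with a median of 35 in both eluates together against 86. The leading 10 kb bin at 800 mM, chr1:88240001-88250000, had 912 reads against 15, a raw ratio of 85.0 (51.3 to 152), and contained 5 called 1 kb bins. Without its leading kilobase, whose removal lowers a fold by construction, it was still 42.6-fold. By contrast chr13:118060001-118070000, with 625 reads against 13, went from 49.5-fold to 6.09-fold without the kilobase that led the 1 kb bins. The remaining 3 were chr6:51410001-51420000 (326 against 5), chr11:33050001-33060000 (185 against 4) and chr6:67230001-67240000 (373 against 14). Input reads in 4 of these 5 bins were between 173 and 191, above the median of 70 over tested 10 kb bins, and 74 in the one on chromosome 13.

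Leading 10 kb bins at 600 mM were again shallow. The top one, chr7:131370001-131380000, had 24 reads against 0, at least 5.72-fold with a lower end of 4.31. Next came chr1:174730001-174740000 with 31 against 1 and chr7:116930001-116940000 with 55 against 4, a raw ratio of 9.84 (3.63 to 37.4). The bin around the leading 600 mM kilobase, chr19:13190001-13200000, had 61 reads against 5, and without that kilobase its fold was 0.867, on the other side of equality.

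The leading 100 kb bins differed in depth, from 295 to 1378 reads at 800 mM on that side and from 87 to 913 reads at 600 mM on the other, against medians of 220 and 327 over all tested bins. At 800 mM, chr7:118200001-118300000 had 707 reads against 209, a fold of 4.65 (raw interval 4.05 to 5.54), and 3.04 without its leading kilobase. Next came chr7:67100001-67200000 with 295 against 86. Removing the leading kilobase took chr11:75500001-75600000 (1378 against 472) from 4.05 to 1.39 and chr13:118000001-118100000 (889 against 308) from 3.99 to 1.53. At 600 mM, chr2:174800001-174900000 had 361 reads against 101, a fold of 2.51 (raw interval 2.05 to 3.22). There 225 of the 361 reads lay in 1 kb, and the fold without it was 1.47. The bin chr11:11900001-12000000 had 913 against 286, a fold of 2.27 (raw interval 2.00 to 2.62), with 399 reads in 1 kb and 1.76 without it. By contrast chr9:81100001-81200000 (87 against 24) and chr6:103400001-103500000 (130 against 40) held no called 1 kb bin and kept folds of 2.48 and 2.25.

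Clustering of wide calls was weaker than at 1 kb for bins higher at 800 mM only. There the share with an adjoining bin called the same way was 27.5% at 1 kb, 9.40% at 10 kb and 5.58% at 100 kb. For bins higher at 600 mM it was 2.00%, 5.91% and 8.78%. At 10 kb from a 10 kb bin higher at 800 mM, 6.14% of tested bins were called the same way (background 1.42%), and 3.99% for bins higher at 600 mM (background 2.66%). At 100 kb the order was different: the share at a distance of 100 kb was 3.01% at 800 mM and 4.73% at 600 mM, and for the latter it was 6.09% at 200 kb and 5.03% at 500 kb, against a background of 1.94%. Beyond 1 Mb both directions were between 0 and 2.72%. The correlation of log2 ratios between adjoining tested bins was 0.14 at 1 kb (282058 pairs), 0.06 at 10 kb and 0.12 at 100 kb, given as a description, since the pairs share both libraries. The 433 bins of 100 kb higher at 600 mM were poor in every library, with 0.523 times the mean MeDIP, 0.548 times the hMeDIP and 0.893 times the input of all tested bins.

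Both directions were spread over all autosomes. The share of tested 1 kb bins called higher at 800 mM ran from 0.704% on chromosome 5 to 1.12% on chromosome 11, and the share higher at 600 mM from 0.540% on chromosome 4 to 0.784% on chromosome 16. Chromosome 16 had the largest shares of both directions at 10 kb (1.67% and 3.28%) and at 100 kb (1.75% and 3.29%). The pooled ratio of a whole autosome stayed between 0.988 and 1.02. In the 5 Mb with reads at the centromeric end of each autosome, 1.19% and 0.787% of tested 1 kb bins were called (800 and 600 mM). At the other end, also over 5 Mb, 0.845% and 0.582% were called, and in between 0.921% and 0.635%. Called bins were found in 62.9% of 1 Mb windows for the 800 mM direction and 63.2% for the other. Windows with at least 10 called bins numbered 51 and 4, the richest at 600 mM being chr10:80000001-81000000 with 14 of 637 tested bins.

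**Figure D5:**
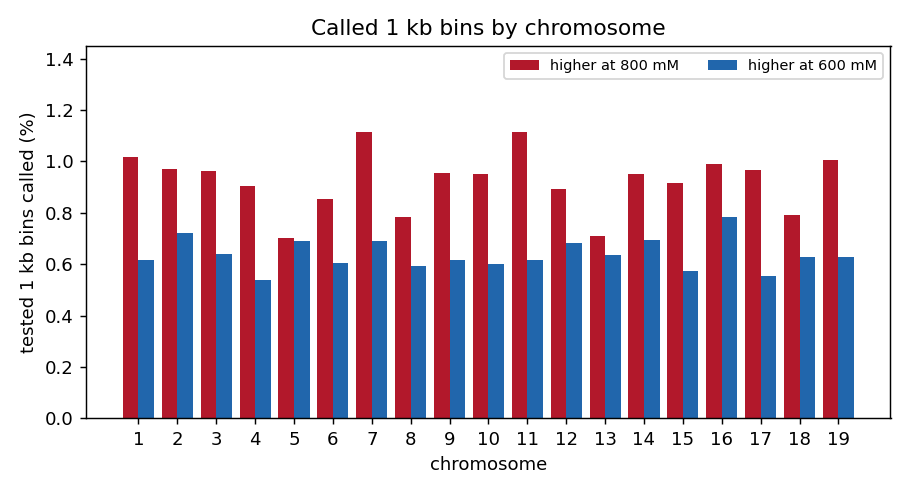
Percent of tested 1 kb bins called (y axis, from 0) on each autosome (x axis), higher at 800 mM in red and at 600 mM in blue, without error bars since each eluate has 1 library. Red exceeds blue on every autosome, by least on chromosome 5 (0.704 and 0.691%).

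Reads with 1 in the fourth column, which no call used, gave the same directions. In all tested bins their count at 800 over 600 mM, scaled by the depths above, had a ratio of 1.08. In the bins higher at 800 mM it was 11.8 (11.3 to 12.3), in those past 8-fold 44.3 (39.4 to 50.04), and in the bins higher at 600 mM 0.343 (0.325 to 0.361). The reads used in the calls had pooled ratios of 10.6, 33.3 and 0.164 in the same sets. The departure toward 600 mM was thus smaller in the reads with 1, and that toward 800 mM was not. Reads with 1 come from the same 2 libraries and are not a replicate.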

How the data were processed

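The authors deposited 1 aligned 35 bp read per line with its position and strand, and column 5 of these deposited files is a read count that never differs from 1. What 0 and 1 in column 4 stand for is unknown from the sources used here, and reads with 1 (7.88% at 600 mM, 8.22% at 800 mM, 8.38% of input, none in MeDIP and hMeDIP) were left out. Per the submitters' processing notes, BWA 0.5.8 was used, with the build mm9. Positions already held 1 read per strand, which caps tall signals. Bins, folds and intervals were computed with Python 3.11.15, numpy 2.4.6, pandas 2.3.3 and scipy 1.17.1. The calling rule was run on simulated counts with set folds only as a check of the code. No rate of false calls from it is reported here. Named regions are the 10 bins of 1 kb, the 5 of 10 kb and the 5 of 100 kb with the largest fold in each direction, and the 5 chains with the most bins. Strand distances used reads within 1000 bp of the median midpoint of a bin's own-eluate reads, for runs with at least 5 reads per strand. Regions, lists, thresholds and read classes were chosen with earlier results of these data known. Alternatives were other pseudocounts, read minimums, scalings, bin borders, read placement, column 4 values and chromosome X. Without mm9 gene models or sequence no gene is named and no sequence is shown.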

Additional observations from a re-analysis of the deposited data

Results flagged for a closer look

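Outside the binned autosomes, some sequence had more reads in the eluates than in input. On the sequence listed as unplaced (Un_random) the RPM over that of input was 1.52 (interval 1.47 to 1.56) at 600 mM and 1.75 (1.69 to 1.80) at 800 mM, and the ratio of 800 over 600 mM was 1.15 (1.12 to 1.19). On unplaced pieces of chromosomes other than Y it was 1.15 (1.11 to 1.18) at 600 mM and 0.956 at 800 mM, with a ratio of 800 over 600 mM of 0.834 (0.803 to 0.867). Chromosome Y was at 130 times input at 600 mM and 133 times at 800 mM, on 1672 and 1217 reads against 22 in input. Unplaced pieces of Y were at 175 and 171 times, on 4702 and 3280 reads against 46. The eluates themselves were level there, with a ratio of 800 over 600 mM of 1.02 (0.944 to 1.10) on Y and 0.975 (0.932 to 1.02) on its unplaced pieces. Since the library labelled input holds almost no reads of Y, the values over input do not measure capture there. Why that library lacks Y reads was not tested. The intervals cover counting error only.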

How the results depend on the processing

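Of 56 alternative counts of called bins, 44 stayed within 1.5 times the reported count. These include the setting that keeps every deposited read with 0 in column 4. It could change no count, since no position and strand held more than 1 such read. With a pseudocount of 0.1 RPM the 1 kb counts were 15251 (800 mM) and 18816 (600 mM), with 13.97% and 4.581% having an adjoining called bin, and 7782 bins of 10 kb were higher at 600 mM. With 2 RPM they were 1461 and 81 at 1 kb (24.91% and 7.407% adjoining), 1109 and 366 at 10 kb, and 256 at 100 kb for 600 mM. With no minimum of reads the 10 kb counts were 4173 and 8365. With at least 40 reads, chosen after seeing the data, 1953 and 448 bins of 1 kb were called (24.53% and 8.482% adjoining). With reads of either value in column 4 the adjoining share at 800 mM was 29.4%. A larger pseudocount asks for more reads by construction. Strand distances changed little in other windows or with reads of either value in column 4. They were -20.25 to -29.25 bp for 8-fold bins and 256.5 to 262.8 bp for well-filled bins higher at 600 mM. These alternatives were chosen after seeing the data. No paired analysis was possible because each eluate has 1 library. Depth limits the 600 mM side most, since 2954 of its 3402 bins of 1 kb held under 40 reads.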

Other observations

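Mitochondrial DNA, which was not binned, had 4744 reads at 800 mM (696 RPM) and 516 at 600 mM (54.2 RPM), a ratio of 12.9 (interval 11.7 to 14.1), against 1056 RPM in input, 313 in MeDIP and 457 in hMeDIP. Each position and strand counts once, which caps these values. Chromosome X had 86015 reads at 800 mM and 122335 at 600 mM, a ratio of 0.983 (0.974 to 0.991).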
